A study of Mus musculus with 8 samples.

Results

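Integrins are the adhesion receptors that let T cells arrest on vessel walls, enter tissues and stay there. Each receptor pairs 1 alpha with 1 beta subunit, and the pair sets the ligand. The 9 subunit genes described here, Itga1, Itga2, Itga4, Itga6, Itgae, Itgal, Itgb1, Itgb2 and Itgb7, were chosen by name for their roles in tissue entry and retention, and Itga2 also for its rise in SuperTreg cells, out of 53465 gene identifiers measured. All 9 were found, and 17 further integrin subunit genes were kept for comparison.

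The study asked what the chromatin remodeller BRG1 (encoded by Smarca4) does in regulatory T (Treg) cells when its gene is deleted and later restored. RNA was sequenced from sorted Treg cells of the spleen and lymph nodes of C57BL/6 mice aged 3 to 4 weeks, with 1 library per condition. All 8 libraries carried R26CAG-FlpoER, a tamoxifen (TAM)-inducible recombinase expressed from a ubiquitous promoter. Deletion relied on a Cre placed in Foxp3, an X-linked gene active mainly in Treg cells.

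The 6 total Treg libraries came from the following mice. WT cells were labelled BrgF/+ Foxp3YFP-Cre/+, so they were heterozygous for Brg1 and not wild type at every locus. Mosaic females gave a Brg1-sufficient subset, labelled BrgF/ΔR Foxp3+/+, and a Brg1-deleted subset, labelled BrgF/ΔR Foxp3YFP-Cre. These mice were healthy, and the sufficient subset was sorted as YFP-negative whereas the others were sorted as YFP-positive. The rKO1 mice, labelled BrgF/deltaR Foxp3YFP-Cre/YFP-Cre, lacked Brg1 in Treg cells and were inflamed, and one library came from such mice without treatment. The ΔR allele is a gene trap that carries GFP and is reversed by FlpoER. Low-dose TAM therefore gave GFP+ cells that had stayed Brg1-deleted and GFP- cells that had regained Brg1, collected on day 7. The GFP- cells, labelled BrgF/+ Foxp3YFP-Cre/YFP-Cre, are the SuperTreg cells of the study. The 2 remaining libraries were activated Treg (aTreg) cells, sorted by surface markers of activation on day 7 after TAM. One was titled Brg1-deleted but carried the genotype BrgF/F, and its column header reads WT(a), so that it may not be what its title says. The other was titled Brg1-reexpressed and labelled BrgF/+.

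Among the subunits, alpha-1 and alpha-2 pair with beta-1 to bind collagen, alpha-6 pairs with beta-1 to bind laminin, and alpha-4 pairs with beta-1 to bind VCAM-1 or fibronectin. Alpha-4 also pairs with beta-7 to bind MAdCAM-1, the addressin of gut vessels. Alpha-E, known as CD103, pairs with beta-7 to bind E-cadherin on epithelium and is used as a marker of tissue-resident T cells and of a Treg subset. Alpha-L pairs with beta-2 to form LFA-1, the main receptor of lymphocytes for ICAM-1 and ICAM-2.

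Levels are FPKM (fragments divided by transcript length and by library depth) after scaling by trimmed mean of M-values (TMM) within each of the 2 experiments, so total Treg and aTreg levels are not on one scale. Folds come from the reads behind the FPKM, 16294459 to 24049643 per library. Their exact 95% intervals cover counting error only. A gene was tested where either library reached 5 CPM (reads scaled to library size), and called where the fold was at least 2. With 1 library per condition there were no replicates and no P values. As a yardstick of spread between libraries, the log2 difference that 95% of the 500 genes closest in expression stayed within was taken from the wider of 2 pairs of like Brg1 state, WT against mosaic Brg1-sufficient and untreated rKO1 against GFP+ cells after TAM.

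Smarca4 itself stood at 13.6 FPKM in WT and 11.9 in mosaic Brg1-sufficient cells, and at 7.29 in the mosaic Brg1-deleted subset, 6.80 without TAM in rKO1 and 5.57 in GFP+ cells. SuperTreg cells had 8.97. In aTreg cells it went against the labels, with 10.99 in the library labelled Brg1-deleted and 9.17 in the library labelled Brg1-reexpressed, so every aTreg direction below is that of the labels. Foxp3, the Treg lineage factor, was at 13.6 to 134 FPKM and Il2ra at 42.6 to 74.4 over the 8 libraries, scaled apart by experiment. Foxp3 was called higher in mosaic Brg1-sufficient than in mosaic Brg1-deleted and WT cells, and in untreated rKO1 than in WT. It was called lower in SuperTreg and untreated rKO1 than in mosaic Brg1-sufficient cells. Whether these differences bear on the integrin folds was not tested. Reads on Y-linked coding genes numbered 1381 to 4246 in the 5 libraries titled as from rKO1 mice and 0 to 5 in the other 3. Sex and host therefore cannot be told apart between them, and the untreated rKO1 library, with 4246 such reads and 10 on Xist, did not match a label with 2 copies of an X-linked allele. GFP+ cells had 2104 Y-linked and 934 Xist reads, and SuperTreg cells 1426 and 762. The aTreg library labelled Brg1-deleted had 2857 and 217, and the one labelled Brg1-reexpressed 1381 and 834. The balance of the 2 kinds of reads thus differed within the aTreg pair, and its effect on the folds was not tested. Erythroid marker genes summed to 21721 CPM in the library labelled Brg1-reexpressed aTreg, against 138 to 1140 elsewhere.

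The promoters of the genes called with BRG1 in total Treg cells, Itga2, Itgb1 and Itgb7, are shown so that the start regions of genes that behaved differently can be read side by side. Each is the 250 bases before the RefSeq start site in GRCm38.p6, 5′ to 3′ on the gene's own strand. Itga2 lies at chr13:114932101-114932350 on the minus strand, Itgb1 at chr8:128685404-128685653 on the plus strand and Itgb7 at chr15:102231936-102232185 on the minus strand. Capitals mark CCACCC or its reverse GGGTGG (the CACCC box) and GGGCGG (the GC box).
Itga2: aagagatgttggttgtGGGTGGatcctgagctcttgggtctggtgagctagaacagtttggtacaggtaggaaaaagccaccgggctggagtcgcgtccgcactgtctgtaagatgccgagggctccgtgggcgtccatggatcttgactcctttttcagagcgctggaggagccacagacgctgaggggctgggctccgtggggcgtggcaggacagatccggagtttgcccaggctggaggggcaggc
Itgb1: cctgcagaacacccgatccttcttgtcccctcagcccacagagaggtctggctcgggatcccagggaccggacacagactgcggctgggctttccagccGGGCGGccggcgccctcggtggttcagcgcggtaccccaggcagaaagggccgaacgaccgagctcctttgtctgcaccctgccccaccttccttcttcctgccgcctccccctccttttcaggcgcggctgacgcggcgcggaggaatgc
Itgb7: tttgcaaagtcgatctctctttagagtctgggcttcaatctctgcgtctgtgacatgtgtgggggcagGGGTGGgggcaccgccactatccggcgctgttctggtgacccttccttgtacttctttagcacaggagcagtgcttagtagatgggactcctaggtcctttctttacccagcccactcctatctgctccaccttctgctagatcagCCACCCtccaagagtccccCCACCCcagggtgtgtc

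The 3 windows differed in composition. Itgb1 held 21 CpG and 68% G+C, Itga2 12 CpG and 60.8%, and Itgb7 5 CpG and 56%, against medians of 6 CpG and 52.4% over 32851 promoter windows of the same length. Of 7 motifs searched on both strands, the CACCC box occurred once in Itga2 and 3 times in Itgb7 and is found in 28.1% of all windows, and the GC box occurred once in Itgb1 and is found in 32.7%. The other 5 had no match in these 3 windows, namely TGTGGT (RUNX, in 14.0% of all windows), TGANTCA (AP-1, 6.75%), TTCNNNGAA (STAT, 7.02%), CCGGAA (ETS, 12.0%) and TCACACC (T-box, 3.33%). The window of Itga4 held the RUNX, T-box, CACCC box and GC box motifs once each and that of Itga1 held none of the 7. Promoters of Itga6, Itgae, Itgal and Itgb2 were not matched in the RefSeq table.

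In the gene annotation (GENCODE M21 on GRCm38), Itga1 (chr13:114953096-115101964) and Itga2 (chr13:114833081-114932100) are neighbours on the minus strand with 20995 bases between them. The other 7 genes lie on chromosomes 2 (Itga4 and Itga6), 7 (Itgal), 8 (Itgb1), 10 (Itgb2), 11 (Itgae) and 15 (Itgb7). Of the exon bases, 3.68% of Itga1 and 8.04% of Itga4 overlapped another gene and none of the others did.

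Total Treg cells expressed these integrins over a wide range of levels. Per length, Itgb7 was highest in all 6 libraries, with a median of 304 FPKM, followed by Itgb2 with 104. Itgb1, Itgal and Itgae had medians of 26.4, 22.2 and 21.2 FPKM, Itga6 of 8.95 and Itga4 of 3.90. Itga2 was low, with a median of 0.590, and Itga1 was close to absent, with 0.0135 FPKM and 1 to 20 reads per library. In aTreg cells the highest and lowest genes were the same, with Itgb7 at 376 and 370 FPKM and Itga1 at 0.0213 and 0.0382. The genes also differed in how far they varied among the 6 libraries, from 1.48-fold between the lowest and highest for Itgal and 1.81-fold for Itgb2 to 6.40-fold for Itgb1 and 71.0-fold for Itga2.

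**Figure D1:**
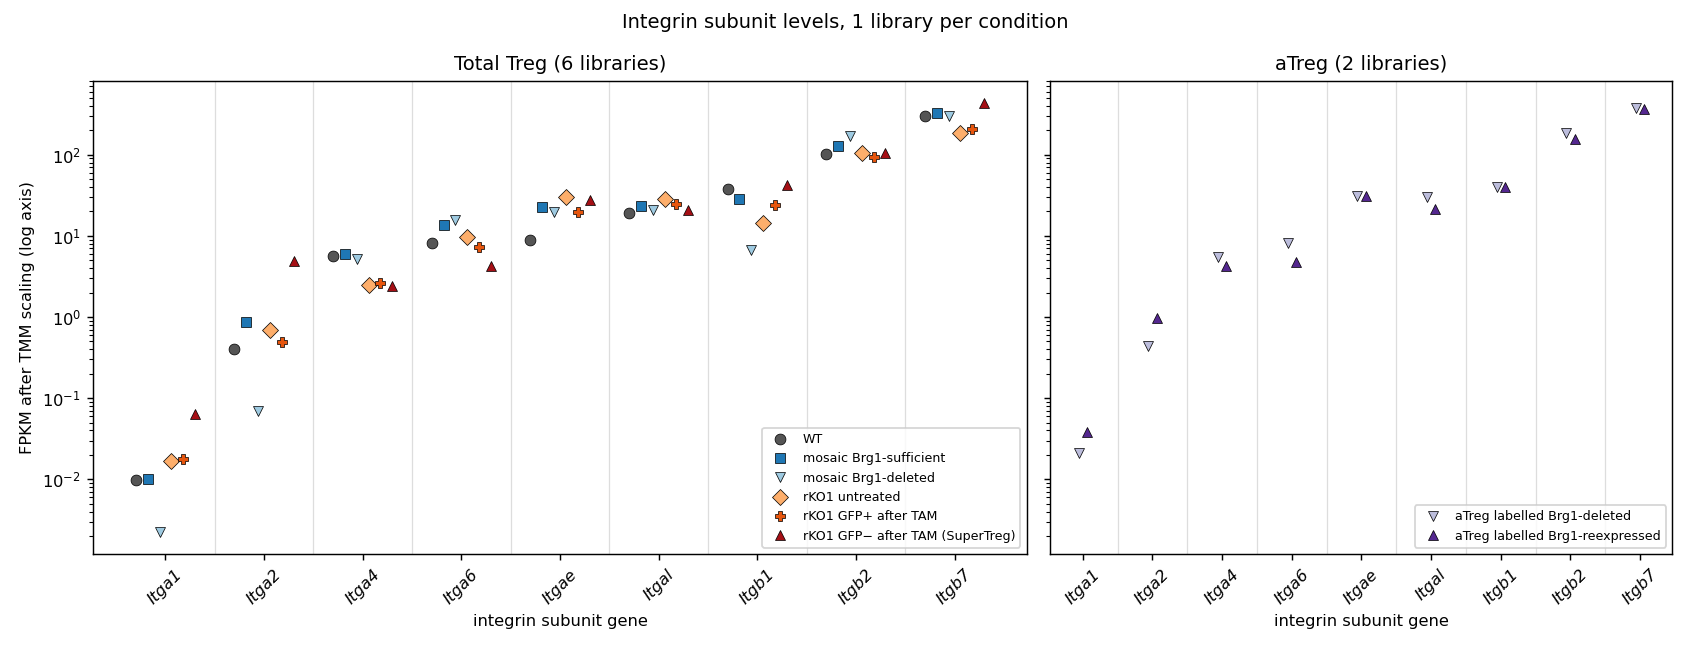
FPKM after TMM scaling (log axis) of each integrin gene, with 1 point per library and the 6 total Treg libraries on the left and the 2 aTreg libraries on the right, scaled apart. Itga2 spans 0.069 to 4.92 FPKM in total Treg cells, with the SuperTreg library highest and the mosaic Brg1-deleted library lowest, whereas Itgal stays between 19.0 and 28.2.

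In total Treg cells the collagen receptor gene Itga2 (CD49b) was the subunit that moved most with BRG1. It was higher in the Brg1-expressing library of both the mosaic and the rKO1 pair. Its level was 0.406 FPKM in WT, 0.880 in mosaic Brg1-sufficient, 0.069 in mosaic Brg1-deleted, 0.689 in untreated rKO1, 0.490 in GFP+ and 4.92 in SuperTreg cells. These values rest on 48, 133, 12, 94, 64 and 588 reads in the same order. SuperTreg cells stood far above the other 5 libraries and mosaic Brg1-deleted cells far below, while the 4 in between lay within a 2.17-fold range. In that order, mosaic Brg1-sufficient and untreated rKO1 differed 1.28-fold (95% interval 0.973 to 1.68), and GFP+ cells and WT 1.21-fold (0.817 to 1.79), so neither pair of neighbours differed beyond counting error. Untreated rKO1 and GFP+ cells differed 1.41-fold (1.01 to 1.965).

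Against GFP+ cells of the same mice, SuperTreg cells had 10.0-fold more Itga2 (log2 3.33, 2.96 to 3.72; yardstick 1.24), and 9 of 10316 tested genes had a larger rise. That rise was part of why Itga2 was chosen, so it is given as a description. In mosaic females, Brg1-sufficient cells had 12.6-fold more than Brg1-deleted cells (log2 3.65, 2.81 to 4.66; yardstick 2.21). On the log2(FPKM + 1) scale, which compresses such low levels, the mosaic value was 0.82 and not called. The 2 comparisons share no library, and the difference between their folds was not tested. The levels were far apart even so, since SuperTreg cells had 5.59-fold (4.62 to 6.80) more than mosaic Brg1-sufficient cells and 12.1-fold (9.03 to 16.6) more than WT, comparisons that use the same SuperTreg library.

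CD49b is also carried by NK cells and platelets. Across rKO1, the 4 NK markers summed to 104 CPM in GFP+ and 36.4 CPM in SuperTreg cells, where Ncr1 was at 0, and the 6 platelet markers to 69.4 and 44.8 CPM, so both sums were lower where Itga2 was higher. Whether such cells had a part in the rKO1 difference was not tested. In mosaic females the NK markers ran the other way, with 52.8 CPM in Brg1-sufficient and 21.7 in Brg1-deleted cells, and Ncr1 at 3.19 and 0.027 FPKM. Their part in the mosaic difference was not tested. The platelet markers were at 1.0 and 1.1 CPM there, with Ppbp, Gp9 and Gp1bb at 0 in both. In these bulk samples, fewer cells carrying a transcript and less of it per cell cannot be told apart.

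Itga1, the other collagen-binding alpha subunit and the chromosomal neighbour of Itga2, stayed under the test's minimum everywhere. It had 3 reads in WT, 4 and 1 in the sufficient and deleted mosaic subsets, 6 in untreated rKO1, 6 in GFP+ and 20 in SuperTreg cells. SuperTreg cells were thus highest for both genes. The rKO1 ratio was 3.59-fold (1.41 to 11.1), inside the yardstick for genes of such low counts, and the mosaic ratio of 4.16 had an interval of 0.454 to 226.

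Itgb1, the shared beta subunit of the collagen, laminin and VCAM-1 receptors, was higher with BRG1 in both settings and called in mosaic females. It was at 37.5 FPKM in WT, 28.8 in mosaic Brg1-sufficient, 6.61 in mosaic Brg1-deleted, 14.5 in untreated rKO1, 24.0 in GFP+ and 42.3 in SuperTreg cells. The 3 Brg1-deleted libraries were the lowest 3 and the 3 Brg1-expressing libraries the highest 3. The step between these trios, mosaic Brg1-sufficient over GFP+ cells, was 1.20-fold (1.13 to 1.28). It lay within the yardstick, at log2 0.27 against 1.10. In mosaic females, Brg1-sufficient cells had 4.36-fold more (log2 2.12, 2.0 to 2.25; yardstick 1.05). In rKO1 mice, SuperTreg cells had 1.77-fold more than GFP+ cells (log2 0.82, 0.74 to 0.91), which was neither called nor beyond the yardstick of 1.07, although beyond that of the rKO1 pair alone (0.62). The difference between the 2 folds was not tested. Untreated rKO1 cells had 2.19-fold (1.99 to 2.42) more Itgb1 than mosaic Brg1-deleted cells, both Brg1-deleted, and 2.58-fold (2.41 to 2.77) less than WT.

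Itga6, the laminin-binding alpha subunit, ran opposite to Itga2 in rKO1 cells. It was at 8.09 FPKM in WT, 13.8 in mosaic Brg1-sufficient, 15.5 in mosaic Brg1-deleted, 9.81 in untreated rKO1, 7.29 in GFP+ and 4.31 in SuperTreg cells, the lowest of the 6. SuperTreg cells had 1.69-fold (1.53 to 1.86) less than GFP+ cells, under the threshold and within the yardstick, and 3.19-fold (2.93 to 3.48) less than mosaic Brg1-sufficient cells, beyond it. The mosaic pair differed 1.13-fold.

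Per length, these opposite moves changed which alpha subunit led among those that pair with beta-1. Within a library such ratios do not depend on scaling. Of the summed FPKM of 12 alpha subunits that can pair with beta-1, Itga2 made up 2.30% in WT, 3.64% in mosaic Brg1-sufficient, 0.293% in mosaic Brg1-deleted, 4.09% in untreated rKO1, 3.55% in GFP+ and 31.2% in SuperTreg cells. Itga6 made up 45.8, 56.9, 65.7, 58.3 and 52.8% in the first 5 and 27.3% in SuperTreg cells. In FPKM, Itga2 thus passed Itga6 in the SuperTreg library alone. In reads it did not, with 588 of Itga2 and 652 of Itga6 there. The crossing therefore depends on the exon lengths of 7133 and 9025 bases. The ratio of Itga2 to Itga6 was 17.0-fold higher (12.9 to 22.4) in SuperTreg than in GFP+ cells and 14.3-fold higher (7.93 to 25.9) in mosaic Brg1-sufficient than in Brg1-deleted cells. Itga5, the fibronectin receptor alpha subunit, had 0 reads in SuperTreg cells and 8 to 47 in the other 5.

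**Figure D2:**
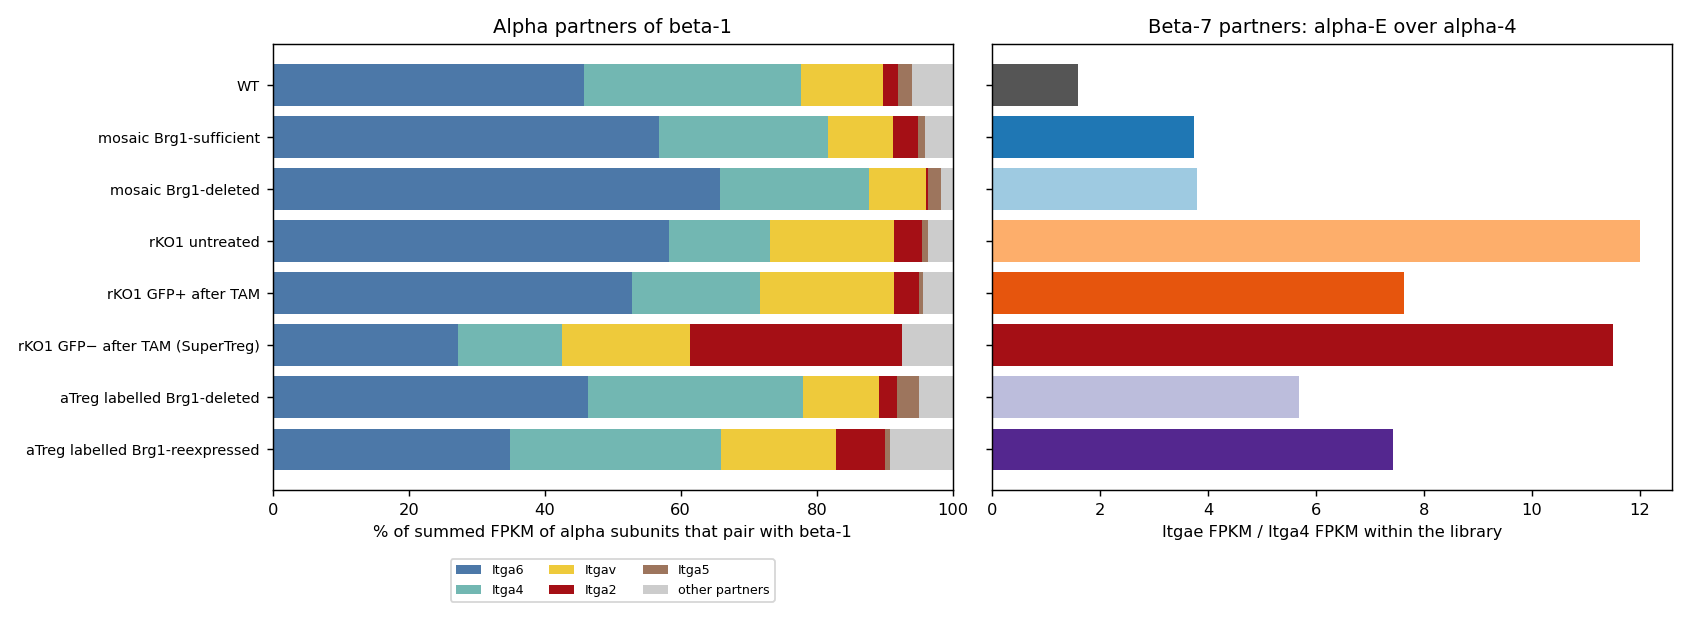
Left, share (%) of each alpha subunit in the summed FPKM of 12 alpha subunits that pair with beta-1, with 1 bar per library. Right, Itgae FPKM over Itga4 FPKM within the same libraries. Itga2 takes 31.2% in the SuperTreg library and 0.293 to 7.11% in the other 7, and the Itgae to Itga4 ratio runs from 1.59 in WT to 12.0 in untreated rKO1.

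Itga4, the subunit for VCAM-1 and MAdCAM-1, was lower in the rKO1 libraries in either BRG1 state. It was at 5.63 FPKM in WT and 5.99 and 5.19 in the sufficient and deleted mosaic subsets, and at 2.51, 2.61 and 2.42 in untreated rKO1, GFP+ and SuperTreg cells. The 3 rKO1 libraries were all below the 3 others, and the widest difference within a trio was 1.15-fold, between the mosaic subsets. Untreated rKO1 cells had 2.24-fold (2.04 to 2.46) less than WT, log2 -1.16 against a yardstick of 1.10, and SuperTreg cells 2.33-fold (2.11 to 2.57) less. The call lay close to the threshold. When libraries were scaled to total reads, the fall in untreated rKO1 against WT shrank to log2 -0.87 and was no longer called, and the calls against both mosaic subsets were lost as well.

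Itgae (CD103) was lowest in WT. It was at 8.92 FPKM in WT, 22.4 in mosaic Brg1-sufficient, 19.7 in mosaic Brg1-deleted, 30.2 in untreated rKO1, 19.9 in GFP+ and 27.8 in SuperTreg cells. WT stood apart from the other 5, which spanned 19.7 to 30.2. The summed Treg markers were lowest in WT as well, at 1302 CPM against 1401 to 2299 in the other 5. Whether this bears on the Itgae folds against WT was not tested. Untreated rKO1 cells had 3.38-fold (3.10 to 3.68) more than WT, SuperTreg cells 3.12-fold (2.86 to 3.40) more and mosaic Brg1-sufficient cells 2.51-fold (2.30 to 2.74) more, and these 3 folds share the WT library. With BRG1 the gene moved little, 1.14-fold in mosaic females and 1.40-fold in rKO1 mice, both within the yardstick.

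Together, the alpha partners of beta-7 differed in proportion between hosts. The ratio of Itgae to Itga4 was 1.59 in WT, 3.75 and 3.79 in the mosaic pair, and 12.0, 7.64 and 11.5 in untreated rKO1, GFP+ and SuperTreg cells. Untreated rKO1 cells had a ratio 7.57-fold (6.68 to 8.58) that of WT and 3.21-fold (2.88 to 3.56) that of mosaic Brg1-sufficient cells. Between mosaic Brg1-sufficient and Brg1-deleted cells the ratio differed 0.988-fold (0.905 to 1.08).

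Itgb7 itself was higher in SuperTreg cells. It was at 303 FPKM in WT, 328 and 304 in mosaic Brg1-sufficient and Brg1-deleted cells, 185 in untreated rKO1, 209 in GFP+ and 440 in SuperTreg cells. The 2 Brg1-deleted rKO1 libraries were lowest and the SuperTreg library highest. SuperTreg cells had 2.11-fold (2.06 to 2.16) more than GFP+ cells, log2 1.07 against a yardstick of 0.92, and 1.45-fold more than WT, and the mosaic pair differed 1.08-fold. The rKO1 call depended on the scaling. With total reads in place of TMM it was log2 0.72 and not called, while Itga6 was called lower. That scaling moved the median of all genes by -0.36 on the log2 scale, and the share of calls that were higher went from 56.0% to 22.9%. Relative to Itga4 within the library, Itgb7 was 2.27-fold (2.03 to 2.55) higher in SuperTreg than in GFP+ cells, whatever the scaling.

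The LFA-1 genes had the narrowest ranges of the 9 over the 6 total Treg libraries. Itgal was at 19.0 FPKM in WT, 23.5 and 20.8 in the mosaic pair, 28.2 in untreated rKO1, 24.5 in GFP+ and 20.95 in SuperTreg cells. Itgb2 was at 102 FPKM in WT, 128 in mosaic Brg1-sufficient, 170 in mosaic Brg1-deleted, 104 in untreated rKO1, 93.9 in GFP+ and 104 in SuperTreg cells. No fold of either gene passed 2 in any of the 10 comparisons. In total Treg cells their largest folds with BRG1 were 1.34-fold less Itgb2 in mosaic Brg1-sufficient than in Brg1-deleted cells, and 1.17-fold less Itgal in SuperTreg than in GFP+ cells, both within the yardstick. In aTreg cells Itgal was 1.41-fold and Itgb2 1.18-fold lower in the library labelled Brg1-reexpressed, more than Itgae, Itgb1 and Itgb7 differed there.

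**Figure D3:**
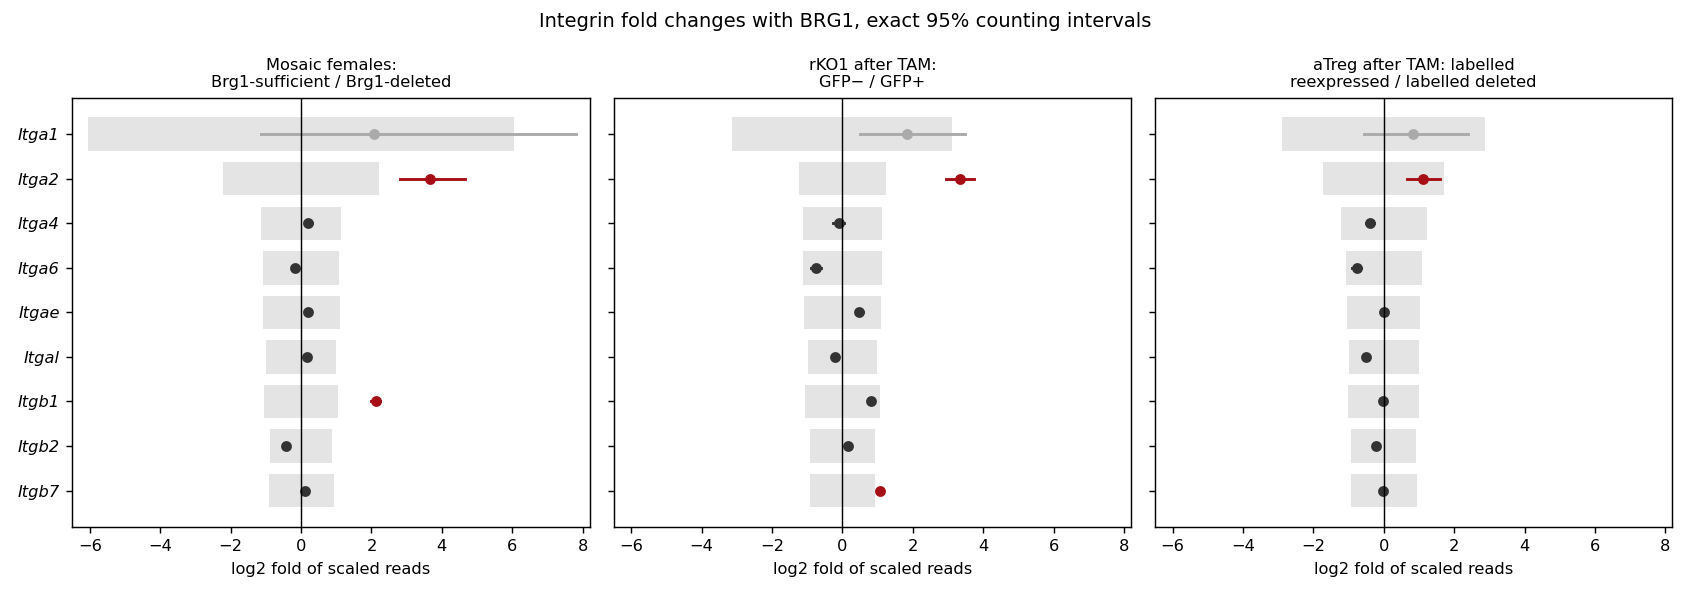
Log2 fold of scaled reads of each integrin gene for the library with or labelled with BRG1 over its Brg1-deleted counterpart, in mosaic, rKO1 and aTreg cells. Lines are exact 95% counting intervals, grey bars the yardstick of spread between libraries, red marks calls of at least 2-fold and light grey an untested gene. Itga2 lies beyond its bar in mosaic and rKO1 cells and inside it in aTreg cells, and Itgb1 lies beyond its bar in mosaic cells.

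Counted over the members, re-expression in rKO1 mice called Itga2 and Itgb7 higher and none lower among the 8 of 9 genes tested, against 12.8% of all tested genes (7.14% higher, 5.62% lower). In mosaic females Itga2 and Itgb1 were called higher and none lower among 8 tested, against 6.12% of all tested genes (4.03% higher, 2.09% lower). Itga2 was called in both, Itgb7 only passed the threshold in rKO1 cells and Itgb1 only in mosaic cells, and differences between the 2 settings were not tested. Itga2 adds nothing to these counts as evidence, since its rKO1 rise was used in choosing it and it reached 5 CPM only in the higher library of each pair (35.1 against 3.49 CPM in rKO1 and 6.28 against 0.494 CPM in mosaic cells). The same held where it was called in aTreg cells and against WT.

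**Figure D4:**
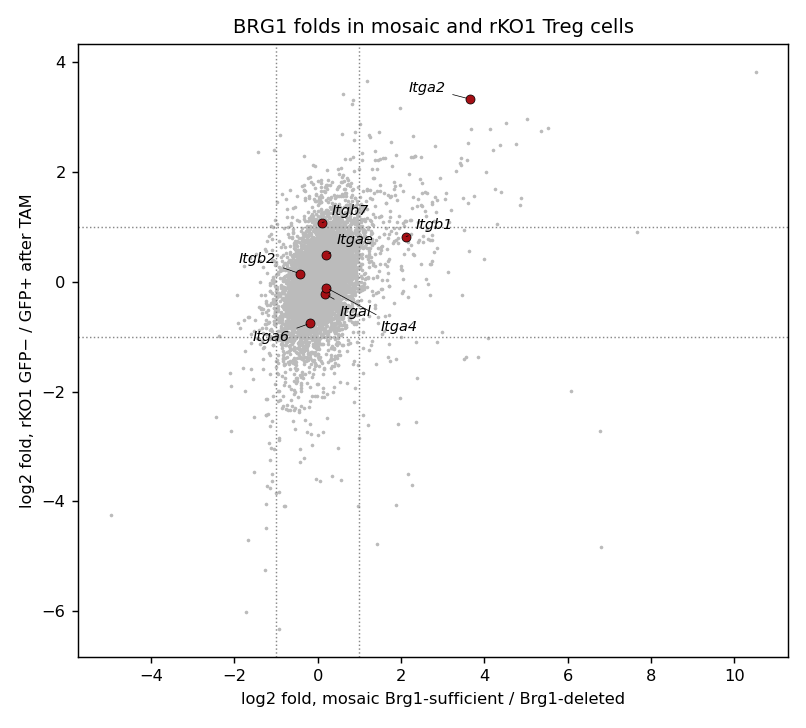
Log2 fold in rKO1 cells (SuperTreg over GFP+) against log2 fold in mosaic females (Brg1-sufficient over Brg1-deleted), for 9627 genes tested in both (grey) and the 8 tested integrin genes (red), with dotted lines at 2-fold. Itga2 lies in the upper right at 3.65 and 3.33, Itgb1 passes the line in mosaic cells only and Itgb7 in rKO1 cells only.

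The comparisons between hosts showed other members. Untreated rKO1 against WT called Itgae higher and Itga4 and Itgb1 lower among 7 tested, against 15.7% of all tested genes (8.59% higher, 7.11% lower). Against mosaic Brg1-sufficient cells, untreated rKO1 cells had only Itga4 called, 2.38-fold (2.18 to 2.61) lower, with a background of 17.3% (8.19% higher, 9.11% lower), and Itgb1 just missed with 1.99-fold less. Against mosaic Brg1-deleted cells, Itgb1 was called higher and Itga4 lower, 2.07-fold (1.89 to 2.26) and within the yardstick, with a background of 15.1% (8.16% higher, 6.96% lower). There Itga2 had 94 against 12 reads, a 9.84-fold (5.43 to 19.9) difference that was not called because both libraries were under 5 CPM. The 3 comparisons share the untreated rKO1 library.

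SuperTreg cells set against Brg1-expressing cells of healthy mice showed members in both directions. Against WT, Itga2 and Itgae were called higher and Itga4 lower, with a background of 17.1% (9.76% higher, 7.37% lower). Against mosaic Brg1-sufficient cells, Itga2 was called higher and Itga4, 2.48-fold (2.25 to 2.73), and Itga6 lower, with a background of 21.8% (10.8% higher, 10.9% lower). Itgb1, in contrast, was within 1.13-fold of WT and 1.47-fold of mosaic Brg1-sufficient cells.

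The 2 pairs of like Brg1 state show how much integrin genes varied without a change in BRG1. GFP+ cells after TAM against untreated rKO1 called 0 of 7 tested members, against 4.42% of all tested genes (2.16% higher, 2.26% lower), with Itgb1 1.65-fold higher and Itgae 1.51-fold lower. Mosaic Brg1-sufficient cells against WT called Itga2 (2.17-fold, 1.55 to 3.08) and Itgae higher, against 9.32% of all tested genes (5.14% higher, 4.18% lower), and Itga6 stood 1.70-fold higher. The yardstick was drawn from these pairs and cannot judge them.

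Between the aTreg libraries Itga2, Itgae, Itgb1 and Itgb7 differed less than between SuperTreg and GFP+ cells. Itga4, Itgal and Itgb2 differed more, and Itga6 about as much. Itga2 was at 0.444 FPKM in the library labelled Brg1-deleted and 0.961 in the library labelled Brg1-reexpressed, from 56 and 135 reads. That was 2.16-fold more (1.58 to 3.01; log2 1.11), the only member called of 8 tested, against 6.44% of all tested genes (4.4% higher, 2.03% lower), and it lay within the yardstick of 1.72 and was lost on the log2(FPKM + 1) scale (0.42) and the log2(FPKM + 0.1) scale (0.93). Summed NK markers moved with Itga2, from 31.6 to 95.4 CPM, platelet markers from 19.4 to 35.3 CPM and myeloid markers from 456 to 677 CPM. The markers called higher were Tyrobp and Fcer1g for NK cells, Pf4 for platelets and Adgre1 for myeloid cells. Itga2b, also on the platelet list, went the other way, from 37 to 29 reads. The part of these lists in the result was not tested. Itga6 was at 8.07 and 4.72 FPKM, 1.71-fold (1.57 to 1.87) lower in the library labelled reexpressed and not called. The remaining subunits were not called, with Itgb1 at 40.5 and 39.9 FPKM, Itgb7 at 376 and 370, Itgae at 31.3 and 31.2, Itgal at 30.3 and 21.5, Itgb2 at 184 and 157, and Itga4 at 5.50 and 4.20.

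By the labels, the directions of Itga2 and Itga6 were the same in aTreg as in total rKO1 cells. Were the 2 aTreg labels exchanged, as the order of Smarca4 leaves possible, both directions would be opposite to those in rKO1 cells, with Itga2 0.462-fold and Itga6 1.71-fold in the library with BRG1. The share of Itga2 among the alpha partners of beta-1 was 2.55% and 7.11%, and the Itga2 to Itga6 ratio was 3.71-fold (2.68 to 5.12) higher in the library labelled reexpressed. The Itgae to Itga4 ratio was 5.69 and 7.42. The 2 experiments were scaled apart and share no library.

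Among 17 other integrin subunits, 3 or 4 passed the minimum in the BRG1 comparisons, and Itga7 alone was called, 3.83-fold (log2 1.94, 1.34 to 2.59) higher in SuperTreg than in GFP+ cells from 102 and 29 reads. Itga7 reached 5 CPM only in the SuperTreg library of that pair (6.09 against 1.58 CPM), so its call is no evidence on the list. Mosaic Brg1-sufficient cells had 74 reads of Itga7 and Brg1-deleted cells 5, a wide difference that was not tested because both were under 5 CPM. Itgav, which pairs with several beta subunits to bind vitronectin and latent TGF-beta, held 1.98 to 3.06 FPKM in total Treg cells. The alpha subunits of myeloid beta-2 integrins were low, with Itgad up to 0.668 FPKM, Itgam up to 0.226 and Itgax up to 0.125 in total Treg cells, and Itgal was the highest of the beta-2 partners there.

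Of genes for integrin ligands, 2 of 5 tested were called lower and none higher in SuperTreg against GFP+ cells, where 5.62% of all tested genes were called lower. Both reached 5 CPM only in the GFP+ library, so their counts are no evidence on the list. Madcam1, the ligand of alpha-4 beta-7, was at 3.57 FPKM in GFP+ and 0.582 in SuperTreg cells, 6.09-fold lower in the latter from 94 and 14 reads, and Lama5, a laminin chain, was 3.70-fold lower from 134 and 33 reads. Both were high in untreated rKO1 cells, Madcam1 at 5.57 FPKM against 0.462 in WT, and Lama5 at 1.24 against 0.032. Myeloid and NK markers were lower in SuperTreg than in GFP+ cells as well. Called lower were 4 of 5 tested myeloid markers (98.6 and 42.1 CPM summed in GFP+ and SuperTreg cells) and 3 of 3 tested NK markers (104 and 36.4 CPM). Of the myeloid markers 5 reached 5 CPM in GFP+ and 1 in SuperTreg cells, and of the NK markers 3 and 2. These counts are therefore no evidence on the lists either. The part of these markers in the ligand differences was not tested. The 3 endothelial markers summed to 50.3 and 47.4 CPM, nearly all from Pecam1, which leukocytes also express, with Kdr at 0 in both and Cdh5 at 0 and 0.0426 FPKM. Icam1 and Icam2, the LFA-1 ligands that T cells themselves carry, were at 9.80 and 41.2 FPKM in GFP+ and 18.1 and 40.7 in SuperTreg cells. In mosaic females and aTreg cells no ligand gene was called, of 2 and 3 tested.

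The machinery that switches integrins on from inside the cell did not reach the threshold in any BRG1 comparison. Of 11 tested activators, none was called in rKO1, mosaic or aTreg cells, and none of 7 tested inhibitors was. Over all tested genes the shares called were 12.8, 6.12 and 6.44% in the same order. No call among so few genes is near those shares. Tln1 (talin, which binds beta tails) was at 17.1 FPKM in GFP+ and 22.5 in SuperTreg cells, Fermt3 (kindlin of blood cells) at 68.1 and 91.1, and Rap1b, the small GTPase that drives activation, at 315 and 481. Untreated rKO1 against WT called Rapgef1 higher (2.29-fold) and Skap1 lower (2.0-fold), both among the 11, against 15.7% of all tested genes.

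Downstream of ligand binding, 2 genes were called lower of 10 tested in rKO1 cells and none higher, where 5.62% of all tested genes were called lower. Ptk2 (focal adhesion kinase) fell from 0.939 FPKM in GFP+ to 0.0826 in SuperTreg cells, 11.3-fold lower from 199 and 16 reads, and Actn1 (alpha-actinin) was 3.33-fold lower. Ptk2 reached 5 CPM only in the GFP+ library of that pair (10.9 against 0.955 CPM), so its call there is no evidence on the list. In mosaic females Ptk2 was again called lower with BRG1, at 0.465 and 0.994 FPKM (2.13-fold), as 1 of 11 tested, against 2.09% of all tested genes. In aTreg cells Tns1 (tensin) was called lower in the library labelled reexpressed, 3.47-fold, of 10 tested, against 2.03% of all tested genes.

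Of 8 tested tetraspanins and other membrane partners of integrins, Cd53 was called higher (2.02-fold) and Cd9 lower (2.09-fold) in SuperTreg cells, and none was called in mosaic or aTreg cells. The shares over all tested genes were 12.8, 6.12 and 6.44% in rKO1, mosaic and aTreg cells. S1pr1, the receptor for lymph node exit, was 2.37-fold lower in untreated rKO1 than in WT.

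Among regulators of tissue retention, Prdm1 was the 1 gene called higher with BRG1 in both rKO1 and mosaic cells. Prdm1 (Blimp-1) was at 1.43 FPKM in WT, 3.99 in mosaic Brg1-sufficient, 0.709 in mosaic Brg1-deleted, 4.25 in untreated rKO1, 3.32 in GFP+ and 11.6 in SuperTreg cells. It was 3.50-fold higher with BRG1 in rKO1 and 5.63-fold higher in mosaic cells. The SuperTreg library was highest and mosaic Brg1-deleted lowest, as for Itga2. Smad7, an inhibitor of TGF-beta signalling, was called lower in SuperTreg cells (2.32-fold), so that 1 of 10 tested was called in each direction there. In mosaic females Tbx21 (T-bet, 4.70-fold) and Ahr (4.11-fold) were also called higher, 3 of 10 in all and none lower, and in aTreg cells none of 10 was called. In untreated rKO1 against WT, Eomes, Tbx21, Runx3 and Prdm1 were called higher, 4 of 11, where 8.59% of all tested genes were called higher. Over all tested genes, 7.14% were called higher and 5.62% lower in SuperTreg against GFP+ cells. In mosaic females 4.03% were called higher and 2.09% lower, and in aTreg cells 6.44% were called in either direction.

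Genes with levels most like Itga2, Itga1 and Itgae were ranked by Pearson correlation over the 6 total Treg libraries among 7522 genes at 20 CPM or more in some library, as a description. For Itga2 the leading gene was Mtch1 (r = 0.988), then Mfsd10, Mbd2, Ndufaf3 and Donson. For Itga1 it was Gm9790 (r = 0.997), with Mcm3, Rnh1, Slc25a4 and Rps27l, although Itga1 itself had at most 20 reads. For Itgae it was Lrrcc1 (r = 0.982), with Atp6v1a, Irf4, Arl5c and Tlcd2. With 6 libraries, 1 high library such as SuperTreg for Itga2 fixes most of such a value.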

How the data were processed

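Treg RNA was sequenced from 8 libraries, 6 of total Treg and 2 of aTreg cells. The authors deposited FPKM per Ensembl gene; the submitters' processing notes name HISAT2 2.0, StringTie 1.3.3b, featureCounts 1.5.0-p3 and the genome build mm10. FPKM were turned back into whole reads with GENCODE M21 exon lengths (tolerance 0.02 reads). In aTreg 100% and in total Treg 93.4% of genes with reads came out whole in every library, and 1271 more did with a length found from the values, Itgb7 among them (2743 in place of 2770 bases). Reads were scaled by TMM within each experiment, and 0.125 reads were added before log2 folds. Intervals are exact binomial intervals of the 2 counts. The 2-fold threshold and the minimum of 5 CPM follow the study's methods. No test was run, because each condition had 1 library.

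Named genes were the 9 members, the 2 largest rises and falls of each other list among its rKO1 calls, defining markers, and the 5 genes most correlated with Itga2, Itga1 and Itgae. Other named genes were picked after their values were seen, as calls in other comparisons or as examples. The members, lists, ratios and motifs were chosen with earlier results of these data known. Steps were tested on simulated counts. Alternatives were other scalings, filters, pseudocounts and thresholds. Columns were read as labelled by sample; protein sequences were not used here, and part of the list of genes for lymph node homing, rolling and egress is not reported here. Python 3.11.15, NumPy 2.4.6, pandas 2.3.3 and SciPy 1.17.1 were used.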

Additional observations from a re-analysis of the deposited data

Results flagged for a closer look

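The LFA-1 genes and Itga4 moved in opposite directions in different settings, with both counting intervals away from 0. Itgal had a log2 fold with BRG1 of -0.22 in rKO1 and 0.18 in mosaic cells, a difference of -0.40, and Itgb2 one of 0.14 and -0.42, a difference of 0.56. Against the aTreg fold of -0.23, the rKO1 fold of Itgb2 differed by 0.38. Between mosaic and aTreg cells, Itga4 (0.21 and -0.39) differed by 0.59 and Itgal (0.18 and -0.49) by 0.67. The 3 differences that involve aTreg cells rest on labels that Smarca4 went against, and with those labels exchanged each pair of folds would share a sign. Each of these folds lay within the yardstick of spread between libraries, the differences were not tested, and the criterion was set after the folds had been seen.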

How the results depend on the processing

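Of 106 counts of called members under alternative settings, 86 stayed within 1.5 times the reported count, and of 540 recomputed member folds 403 stayed within counting error, 137 moved beyond it and none reversed a call. At 1.5-fold in place of 2-fold the called members numbered 4 in SuperTreg against GFP+, 2 in aTreg, 3 in untreated rKO1 against mosaic Brg1-sufficient, 6 against mosaic Brg1-deleted and 2 in GFP+ against untreated rKO1. With log2(FPKM + 1) they numbered 1 in mosaic females (Itgb1), 0 in aTreg, 0 in untreated rKO1 against mosaic Brg1-sufficient, 1 against mosaic Brg1-deleted and 1 in mosaic Brg1-sufficient against WT. With log2(FPKM + 0.1) they numbered 0, 1 and 1 in aTreg, untreated rKO1 against mosaic Brg1-deleted and mosaic Brg1-sufficient against WT. For untreated rKO1 against mosaic Brg1-sufficient the count was 0 with total reads, 2 with FPKM as deposited and 3 beyond the yardstick of the rKO1 pair alone, which was added after seeing the data. Against mosaic Brg1-deleted it was 4 without a filter, 1 beyond the yardstick and 4 beyond that of the rKO1 pair, and in aTreg it was 0 beyond the yardstick. Total reads swapped members at an equal count in 3 comparisons, Itgb7 for Itga6 in rKO1 and Itga4 for Itga2 in untreated rKO1 against WT and against mosaic Brg1-deleted. The cause was not tested.

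Over all genes, 1317 calls in rKO1 became 2705 at 1 CPM, 8920 without a filter, 745 with log2(FPKM + 1) and 3175 at 1.5-fold. The 616 in mosaic females became 1562, 7902, 341 and 2027, and the 646 in aTreg 1735, 7632, 300 and 1993. In mosaic females total reads moved the median of all genes by -0.14 on the log2 scale and the share of calls that were higher from 65.9% to 49.4%. No paired analysis was possible because each condition had 1 library. For the same reason no library could be left out, and Itga1 and Itga2 rest on few reads in several libraries.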
